A study of Mus musculus with 4 samples.

Results

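Cytosolic nucleic acid sensing was described here through 8 genes named by symbol: the RNA sensors Ddx58 (RIG-I), Ifih1 (MDA5) and Dhx58 (LGP2), the adaptors Mavs and Tmem173 (STING), the kinases Tbk1 and Ikbke, and the exonuclease Trex1. All 8 were found among the 54532 genes listed for each of the 4 libraries, and 7 of them were among the 11640 genes with a mean CPM (reads of a gene scaled to library size) of 1 or more. Trex1 was listed with 0 reads in every library. The libraries came from RAW 264.7 cells, a mouse macrophage cell line: untreated wild type, untreated Hnrnpul1-/-, wild type given lipopolysaccharide (LPS) at 100 ng/ml for 10 h, and Hnrnpul1-/- given the same LPS treatment. LPS is a bacterial outer membrane component sensed by TLR4. Hnrnpul1 encodes a nuclear RNA-binding protein of the hnRNP U family. The sources used here do not say how the knockout was made or whether it is 1 clone. Each group held 1 library, so a ratio of 2 libraries carries counting error only, and nothing here tests how far cultures of the same kind differ.

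Cells detect viral or misplaced nucleic acid in the cytosol along a pair of routes. RIG-I and MDA5 are helicases that bind double-stranded RNA and signal through MAVS on mitochondria; LGP2 is a related helicase without the signalling domains and modulates both. DNA in the cytosol is bound by cGAS, whose cyclic dinucleotide product cGAMP activates STING on the endoplasmic reticulum. Both routes reach TBK1 and its relative IKK-epsilon (Ikbke), which phosphorylate IRF3 and IRF7 and so start type I interferon transcription, while TREX1 degrades cytosolic DNA and limits the STING route. In macrophages LPS also induces interferon through TLR4, and several sensors are themselves interferon-stimulated genes.

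Total counts lay between 17045432 and 17909549 per library. Hnrnpul1 had 5086 reads in wild type at rest, 447 in knockout at rest, 3114 in wild type with LPS and 350 in knockout with LPS, a log2 ratio of -3.54 between the untreated genotypes and of -3.22 under LPS, so the genotype labels matched the level of the targeted gene. Of 10 macrophage markers, 8 were measured, and Mrc1 and Mertk had at most 2 reads in any library. Summed over the list, the macrophage markers stood at 3695 normalized CPM in wild type at rest, 3163 in knockout at rest, 8492 in wild type with LPS and 5658 in knockout with LPS. Its part in the results below was not tested. Of 19 markers of T cells, B cells, neutrophils, epithelium, fibroblasts and mast cells, 15 to 17 were at 0 in each library and none passed 7 reads. In bulk RNA, fewer cells of a type and less RNA per cell cannot be told apart. Levels below are CPM scaled by TMM factors (normalized CPM) when a gene is followed across libraries. When genes are compared with each other they are deposited FPKM, which are per gene length. That length counts all annotated exonic bases: 9018 for Ikbke and 8165 for Ifih1, against 3910 for Tbk1 and 3345 for Mavs. The transcripts made may be shorter, so the order of genes depends on the annotation, which counting intervals do not cover.

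At rest, Tbk1 and the adaptors were the abundant members and the sensors the scarce ones. In untreated wild type, Tbk1 stood first at 19.79 FPKM, followed by Tmem173 at 12.21, Mavs at 8.89 and Ikbke at 3.89. The helicases were lower, with Dhx58 at 2.29 FPKM, Ddx58 at 2.17 and Ifih1 last at 0.547. Neighbours in this order differed beyond counting error except for Dhx58 and Ddx58, whose ratio of 1.06 had a 95% counting interval of 0.864 to 1.29. The untreated knockout kept Tbk1, Tmem173 and Mavs in the first 3 places at 19.52, 15.0 and 9.71 FPKM. Next came Ikbke at 3.91, Ddx58 at 3.55 and Dhx58 at 3.33 FPKM, with intervals of the neighbouring ratios that included 1. Ikbke and Dhx58 were not compared directly there. Ifih1 was again last at 0.389 FPKM.

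LPS changed the order. In wild type with LPS, Dhx58 at 62.89 FPKM and Ddx58 at 62.55 led, not separable from each other by counting error (ratio 1.01, interval 0.964 to 1.05). Tbk1 came next at 47.38 FPKM, then Ikbke at 32.49 and Ifih1 at 31.76, which again could not be ordered. Tmem173 at 16.78 and Mavs at 7.30 FPKM were now at the bottom. Knockout cells with LPS gave the same sequence of names, from Dhx58 at 63.47 and Ddx58 at 53.96 FPKM down to Tmem173 at 20.96 and Mavs at 5.91 FPKM. There Dhx58 exceeded Ddx58 beyond counting error, by 1.18-fold with an interval of 1.13 to 1.23.

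**Figure D1:**
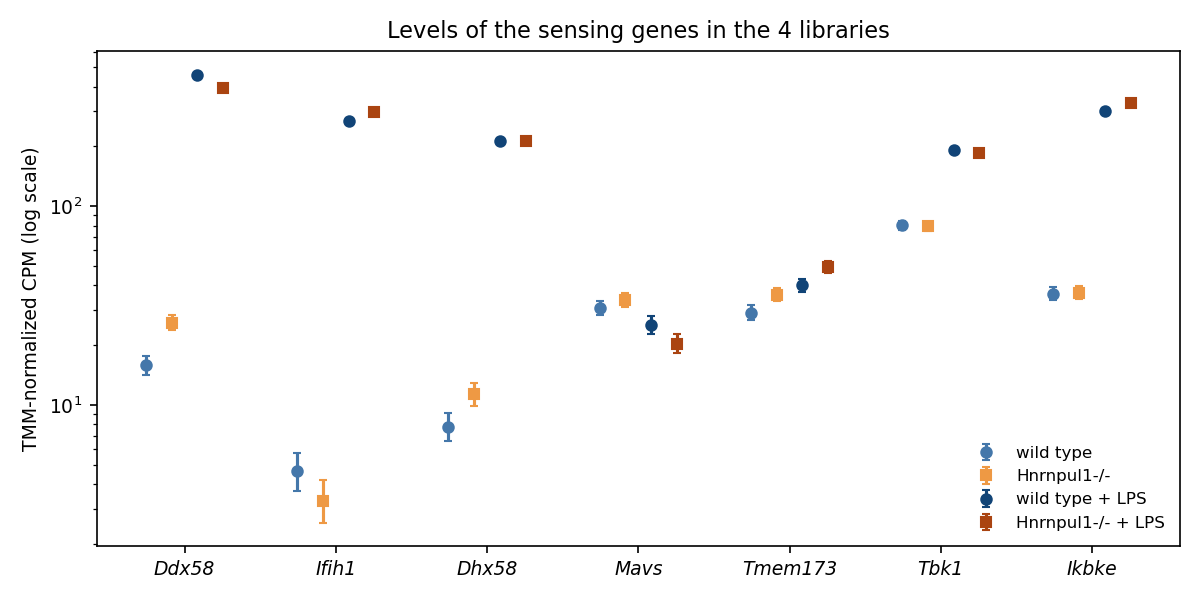
Level of each measured gene in the 4 libraries, in TMM-normalized CPM on a log axis, with 95% counting intervals as bars; circles are wild type and squares Hnrnpul1-/-, pale untreated and dark with LPS. Ddx58, Ifih1, Dhx58 and Ikbke separate widely into untreated and LPS points, Tbk1 less, and Mavs and Tmem173 stay between 20.37 and 49.75 normalized CPM.

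The response to LPS was asked separately in each genotype, from pairs of libraries that share no library. A gene was called when the ratio reached 2-fold and its 95% counting interval excluded no change. By this rule 5 of the 7 measured members were higher with LPS in wild type and 5 of 7 in knockout, the same 5 genes: Ddx58, Ifih1, Dhx58, Tbk1 and Ikbke. Of all measured genes, 11.2% were called higher in wild type, 11.6% in knockout and 9.66% in both. No member was called lower, against 10.1% and 12.0% of all genes. The median log2 ratio of the 7 was 3.06 in wild type and 3.17 in knockout, beside -0.004 and -0.02 over all measured genes.

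**Figure D2:**
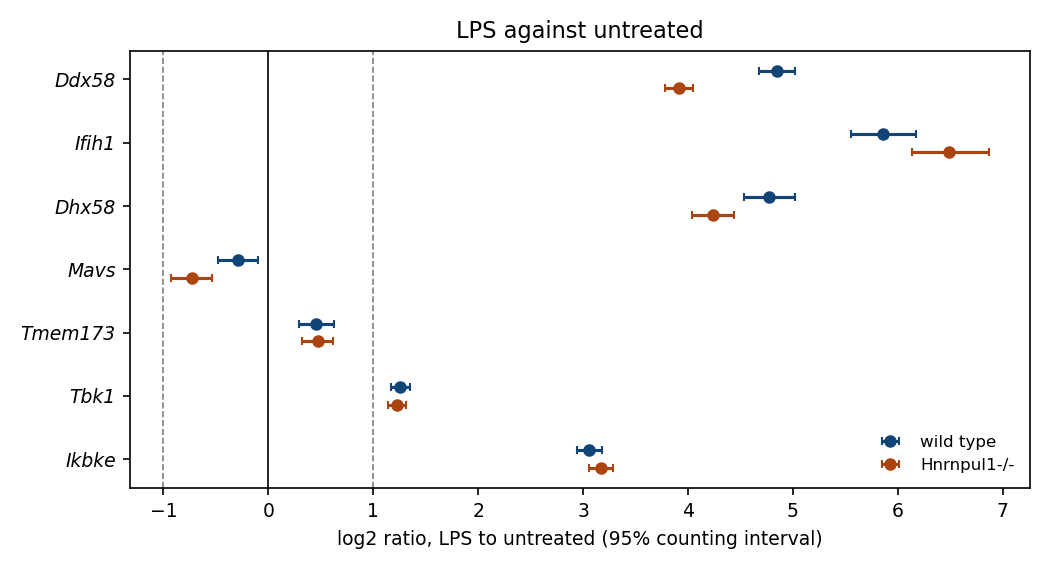
Log2 ratio of LPS to untreated for each measured gene, wild type in blue and Hnrnpul1-/- in red, with 95% counting intervals; dashed lines mark 2-fold. The 3 helicases lie between 3.91 and 6.49, Ikbke near 3, Tbk1 just above 1, and the 2 adaptors inside the 2-fold lines.

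Scaling by total counts in place of TMM moved the median log2 ratio of all genes to -0.30 in wild type and -0.33 in knockout, so LPS ratios are given relative to the TMM scaling. Under total counts Tbk1 fell short of the 2-fold rule, at 0.96 and 0.91, and Mavs in knockout passed it, at -1.04. That left 4 members higher in each genotype, and 1 lower in knockout. Of the 11640 measured genes, total counts gave 975 higher and 1904 lower in wild type, and 989 and 2156 in knockout.

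An additive model of genotype and LPS over the 4 libraries gave the only test, with 1 residual degree of freedom and the interaction taken as residual spread. In edgeR's quasi-likelihood test with Benjamini-Hochberg adjustment over all genes, 6 measured members rose with LPS and 1, Mavs, fell, where 30.2% of all genes rose and 30.1% fell. With 60.3% of the table passing in some direction, the count of members says little by itself and the sizes below carry the description.

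Ddx58 encodes RIG-I, which recognises RNA with a 5′ triphosphate. It lies at chr4:40203773-40239828 (GRCm38, minus strand; ENSMUSG00000040296) and encodes a protein of 926 residues. Ddx58 had 301 reads in wild type at rest, 504 in knockout at rest, 7008 in wild type with LPS and 6314 in knockout with LPS. The 2 untreated libraries were the low ones, and the untreated knockout lay above the untreated wild type. On the normalized CPM scale these were 15.85, 26.02, 456.4 and 392.1. The LPS ratio was 28.8-fold in wild type, with a counting interval of 25.7 to 32.4, and 15.1-fold in knockout, with an interval of 13.8 to 16.5. The fitted LPS effect of Ddx58 in edgeR was 4.36 on the log2 scale (adjusted p = 6.70e-07).

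Ifih1 encodes MDA5, the sensor of long double-stranded RNA, and is at chr2:62595798-62646255 (minus strand; ENSMUSG00000026896; 1025 residues). It was the scarcest measured member at rest and had the largest LPS ratio of the 7. Its reads were 88 in wild type at rest, 64 in knockout at rest, 4121 in wild type with LPS and 4779 in knockout with LPS. The ratio was 57.9-fold in wild type (interval 46.9 to 72.4) and 89.8-fold in knockout (interval 70.2 to 116.8). Only 94 of the 11640 measured genes had a larger ratio in wild type, and 74 in knockout. These intervals were the widest among the LPS ratios because fewer than 100 reads stood in each denominator. The fitted effect in edgeR was 6.15 (adjusted p = 2.58e-08). On the log2(FPKM + 1) scale, which understates changes of low genes, the ratios of Ifih1 were smaller, at 4.40 and 4.71.

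Dhx58 encodes LGP2 and is at chr11:100694884-100704271 (minus strand; ENSMUSG00000017830; 678 residues). It had 148 reads in wild type at rest, 220 in knockout at rest, 3270 in wild type with LPS and 3447 in knockout with LPS. The 2 LPS libraries were nearly level at 213.0 and 214.1 normalized CPM, while at rest the knockout, at 11.36, lay above wild type, at 7.79. The LPS ratio was 27.3-fold (interval 23.2 to 32.5) in wild type and 18.8-fold (interval 16.4 to 21.7) in knockout, with a fitted effect in edgeR of 4.49 (adjusted p = 7.89e-08). The annotated antisense gene Dhx58os shares 141 exonic bases of Dhx58, or 4.31% of its exonic length, and had 1, 4, 13 and 22 reads in the same order of libraries. The sources used here do not say whether strand entered the counting, so reads in the shared stretch cannot be assigned to either gene.

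The starts of the helicase genes are shown because these genes were higher together with LPS. RefSeq promoter windows (GRCm38.p6, 250 bases before to 50 after each annotated start) were matched for 6 of the 8 members, all but Dhx58 and Tmem173. The 3 motifs below were searched on both strands: the core of the interferon-stimulated response element (ISRE), GAAANNGAA; the GAS element bound by STAT dimers, TTCNNNGAA; and the kappaB consensus. Windows with a match made up 8.56%, 8.3% and 8.46% of 32851 windows of the same length. The Ddx58 window held 1 ISRE core, beginning at base 4 of the transcript and reading on the strand opposite to the gene. The Ifih1 window held 2, one beginning 112 bases before the start on the opposite strand and one beginning at base 33 of the transcript on the gene's own strand. In the 30-base stretches below, written 5′ to 3′ along the minus strand, on which both genes lie, capitals mark the motif.
Ddx58 chr4:40239803-40239832: ctgaggcagtTTCGATTTCctatggccagc
Ifih1 upstream chr2:62646348-62646377: agaattcgcgTTCCCTTTCctgtttctcac
Ifih1 downstream chr2:62646206-62646235: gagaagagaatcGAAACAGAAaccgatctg
No match overlapped another. The windows of Mavs, Tbk1 and Ikbke held none of the 3 motifs, and one of the Trex1 windows held a kappaB match 246 bases before the start. A match is a run of letters in a window and not a measured binding site.

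The adaptors moved little. Mavs encodes the mitochondrial adaptor of RIG-I and MDA5 and is at chr2:131234063-131248025 (plus strand; ENSMUSG00000037523; 503 residues). It had 586 reads in wild type at rest, 655 in knockout at rest, 388 in wild type with LPS and 328 in knockout with LPS, so both LPS libraries lay below both untreated ones. Its log2 LPS ratio was -0.29 in wild type (interval -0.48 to -0.10) and -0.73 in knockout (interval -0.93 to -0.54), neither of which reached 2-fold. In edgeR the fitted effect of LPS on Mavs was -0.51 (adjusted p = 0.0102), and by DESeq2's Wald test it missed the threshold (adjusted p = 0.053).

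Tmem173 encodes STING, the receptor of cyclic dinucleotides, and is at chr18:35733678-35740554 (minus strand; ENSMUSG00000024349; 378 residues). Its reads were 554 in wild type at rest, 696 in knockout at rest, 614 in wild type with LPS and 801 in knockout with LPS. Both LPS libraries lay above both untreated ones on the normalized CPM scale, at 39.99 and 49.75 against 29.16 and 35.93. The LPS ratio was 1.37-fold (interval 1.22 to 1.54) in wild type and 1.38-fold (interval 1.25 to 1.53) in knockout. In edgeR the fitted LPS effect was 0.46 (adjusted p = 0.00269), and with total counts as the scaling it was 0.16 (adjusted p = 0.158).

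The kinases differed in size of response. Tbk1, at chr10:121546455-121586787 (minus strand; ENSMUSG00000020115; 729 residues), encodes the kinase shared by the MAVS and STING routes. It had 1525 reads in wild type at rest, 1539 in knockout at rest, 2944 in wild type with LPS and 2993 in knockout with LPS. The pairs of libraries with the same treatment were close, and LPS lay above untreated by 2.39-fold in wild type (interval 2.24 to 2.54) and 2.34-fold in knockout (interval 2.2 to 2.49). The fitted LPS effect in edgeR was 1.24 (adjusted p = 2.29e-06).

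Ikbke, at chr1:131254343-131279606 (minus strand; ENSMUSG00000042349; 717 residues), encodes the inducible relative of TBK1. Its reads were 691 in wild type at rest, 711 in knockout at rest, 4656 in wild type with LPS and 5318 in knockout with LPS. The LPS ratio was 8.34-fold (interval 7.69 to 9.04) in wild type and 9.0-fold (interval 8.32 to 9.74) in knockout, and the fitted effect in edgeR was 3.11 (adjusted p = 3.91e-08). The antisense genes Gm28914 and Gm28913 share 159 and 65 exonic bases with Ikbke, 2.48% of its exonic length together, and had at most 58 reads in a library.

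Ratios of 2 members within a library involve no scaling between libraries, and they show how transcript levels moved relative to each other. The pairs were chosen after the values were seen. The size of each ratio depends on the annotated lengths, which are the same in all 4 libraries. Per length, Ikbke stood at 0.196 of Tbk1 in wild type and 0.200 in knockout at rest, and at 0.686 and 0.770 with LPS. The transcript of the sensor RIG-I changed place with that of its adaptor. Ddx58 was at 0.244 of Mavs in wild type and 0.365 in knockout at rest, and at 8.57 and 9.13 times Mavs with LPS. Protein was not measured. Ifih1 went from 0.0615 and 0.0400 of Mavs at rest to 4.35 and 5.97 times Mavs with LPS. Tmem173 over Mavs, the adaptor of the DNA route over that of the RNA route, was 1.37 and 1.54 at rest and 2.30 and 3.55 with LPS, again in the order wild type, knockout.

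Trex1, at chr9:109057933-109059734 (minus strand; ENSMUSG00000049734; 314 residues), encodes the main cytosolic DNA exonuclease, and it gave no reads in any of the 4 libraries. A count of 0 allows up to 3 counts, or 0.155 to 0.195 normalized CPM depending on the library, for reads assigned to it. All 1147 of its 1147 exonic bases in the GENCODE M21 annotation (GRCm38) are also exonic in Atrip, which lies on the same strand and encodes the partner protein of the ATR kinase. Atrip had 423 reads in wild type at rest, 429 in knockout at rest, 324 in wild type with LPS and 401 in knockout with LPS. Of the 177 protein-coding genes whose exonic bases are all shared with another gene, 165 (93.2%) had 0 reads in all 4 libraries, against 6665 of 15485 (43.0%) with no shared base. The sources used here do not say how reads on exons of more than 1 gene were counted, so the 0 reads do not show that Trex1 is silent, and transcripts of Trex1 and Atrip cannot be told apart over these bases. Trex1 therefore enters none of the counts of members.

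**Figure D3:**
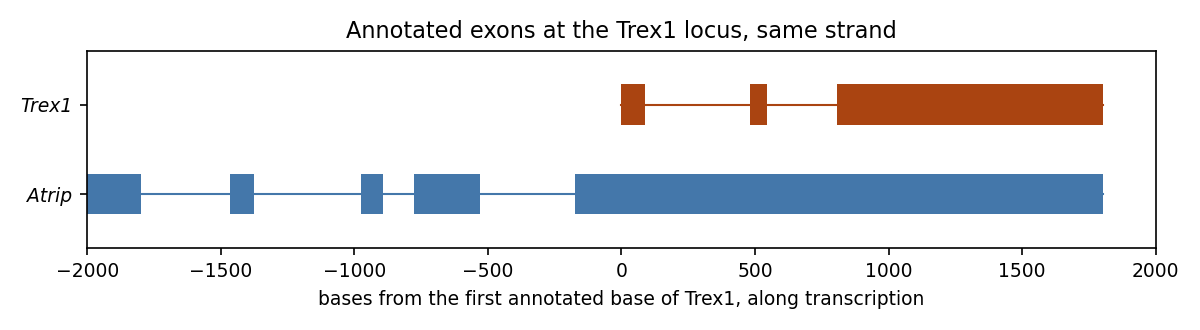
Annotated exons (boxes) and introns (lines) of Trex1 and of the neighbouring part of Atrip on the same strand; the x axis gives bases from the first annotated base of Trex1 along transcription. Every exonic base of Trex1 lies within the last exon block of Atrip.

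The genotypes were then compared within each treatment. No member was called different between knockout and wild type by the 2-fold rule, untreated or with LPS, where 2.01% and 3.49% of all measured genes were called. In the additive edgeR model 0 of the 7 passed for genotype, against 1.92% of all genes, and Tmem173 alone had an unadjusted p below 0.05 (adjusted p = 0.177). DESeq2's Wald test and limma also called 0 of the 7, with an unadjusted p below 0.05 for none in DESeq2 and for Tmem173 in limma. These models fit a single genotype effect over both treatments, so differences of opposite sign in untreated and LPS libraries largely cancel. The fitted log2 genotype effect in edgeR was 0.15 for Ddx58 and 0.02 for Ifih1. Without the size rule, the counting interval excluded no change for 4 members untreated and 5 under LPS. Of all genes, 31.0% and 40.2% did so.

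**Figure D4:**
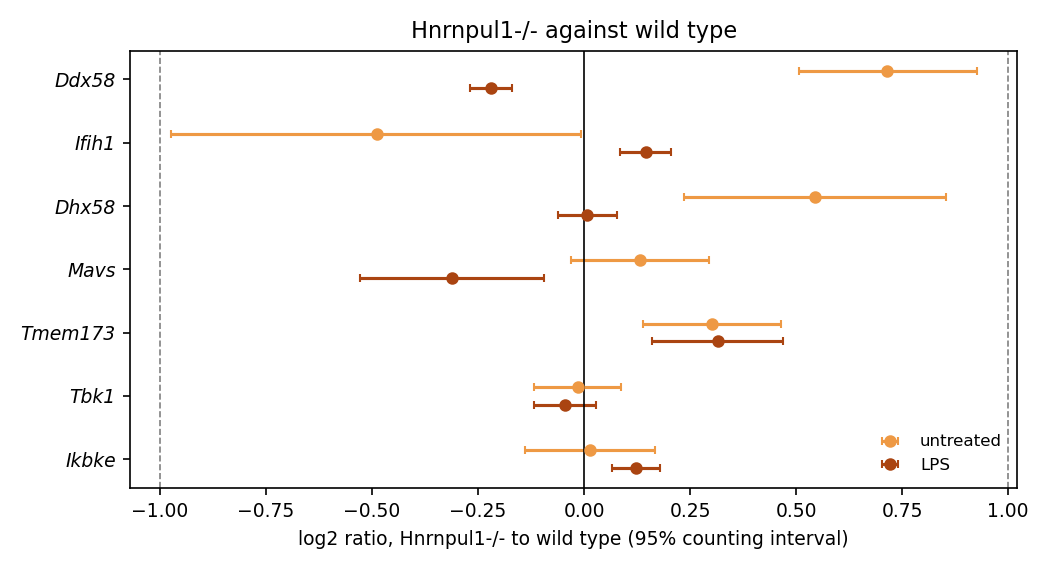
Log2 ratio of Hnrnpul1-/- to wild type for each measured gene, untreated in orange and with LPS in red, with 95% counting intervals; dashed lines mark 2-fold. All points lie inside the 2-fold lines, and Ddx58, Ifih1 and Mavs have points on both sides of 0.

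The sensors showed the larger differences at rest. Untreated Ddx58 was 1.64-fold higher in knockout (interval 1.42 to 1.90), and 329 measured genes had a larger ratio. Untreated Dhx58 was 1.46-fold higher (interval 1.18 to 1.81). Ifih1, on 88 and 64 reads, went the other way at a log2 ratio of -0.49, with an interval of -0.98 to -0.007 that comes close to no change. With LPS these differences were small: -0.22 for Ddx58 (interval -0.27 to -0.17), 0.15 for Ifih1 (interval 0.08 to 0.21) and 0.01 for Dhx58 (interval -0.06 to 0.08).

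Tmem173 was higher in knockout by nearly the same amount in both states, with log2 ratios of 0.30 untreated (interval 0.14 to 0.46) and 0.31 with LPS (interval 0.16 to 0.47). Mavs had a ratio of 0.13 untreated (interval -0.03 to 0.30) and -0.31 with LPS (interval -0.53 to -0.10). The kinases were nearly level between genotypes. Tbk1 had log2 ratios of -0.01 (interval -0.12 to 0.09) untreated and -0.04 (interval -0.12 to 0.03) with LPS, and Ikbke 0.01 (interval -0.14 to 0.17) and 0.12 (interval 0.07 to 0.18). These intervals hold counting error only and put no bound on differences between cultures.

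Whether the LPS ratio differed between genotypes was taken as the knockout log2 ratio minus the wild-type one. No member reached a difference of 2-fold, where 3.02% of all genes were called. The interval excluded 0 for 4 of the 7 members, against 29.6% of all genes. The difference was -0.93 for Ddx58 (interval -1.15 to -0.72), -0.54 for Dhx58 (interval -0.84 to -0.23) and -0.44 for Mavs (interval -0.71 to -0.18), each a smaller ratio in knockout. For Ifih1 it was 0.63 (interval 0.16 to 1.10). Tmem173, Tbk1 and Ikbke had differences of 0.01, -0.03 and 0.11 with intervals that included 0. Within libraries, Ifih1 over Ddx58 per length was 0.252 in untreated wild type (interval 0.197 to 0.321) and 0.110 in untreated knockout (interval 0.0832 to 0.142). With LPS the order of the genotypes was the reverse, at 0.508 in wild type and 0.654 in knockout.

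The genes most like each responsive member were those at the smallest Euclidean distance between centred log2 normalized CPM over the 4 libraries, among 9245 protein-coding genes with a mean of at least 5 CPM. With 4 points, 2 of them with LPS, this likeness is a description. For Ddx58 the nearest were H2-T24, a non-classical MHC class I gene, at 0.215, and Mndal, a gene of the interferon-inducible p200 family, at 0.237. The same pair came nearest to Dhx58, at 0.218 and 0.276. At rest H2-T24 was at 6.84 normalized CPM in wild type and 11.98 in knockout. With LPS it was at 186.6 in wild type and 195.8 in knockout. The distance used all 4 libraries, so sharing the higher untreated knockout value of Ddx58 and Dhx58 follows from the choice. Ifih1 had few neighbours: Ifi203, another p200 gene, at 0.498 and the chemokine gene Ccl7 at 0.611. For Ikbke they were Rnf19b at 0.130 and Tmem171 at 0.141. Tbk1 had the commonest pattern, with 685 genes within 0.5 and Zscan29 at 0.0297 and Apobr at 0.0391 in front.

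Around the 8 genes, a list of 122 other genes of the pathway was examined, of which 120 were found and 109 measured. In wild type 16 of the 109 were called higher with LPS and 9 lower, and in knockout 18 and 6, so most of the pathway did not reach the 2-fold rule. Over all measured genes wild type had 11.2% called higher and 10.1% lower, and knockout had 11.6% and 12.0%. The median log2 LPS ratio was 0.18 in wild type and 0.17 in knockout, beside -0.004 and -0.02 for all genes. Scaled by total counts the calls were 14 higher and 12 lower in wild type and 13 and 12 in knockout. Over all 11640 measured genes that scaling gave 975 higher and 1904 lower in wild type, and 989 and 2156 in knockout. In the additive edgeR model, 46 of the 109 rose and 25 fell with LPS, where 30.2% of all genes rose and 30.1% fell. More of the list rose than fell, while over all genes the directions were nearly level. Taken in either direction, the share of the list that passed was near that of the table (60.3%).

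**Figure D5:**
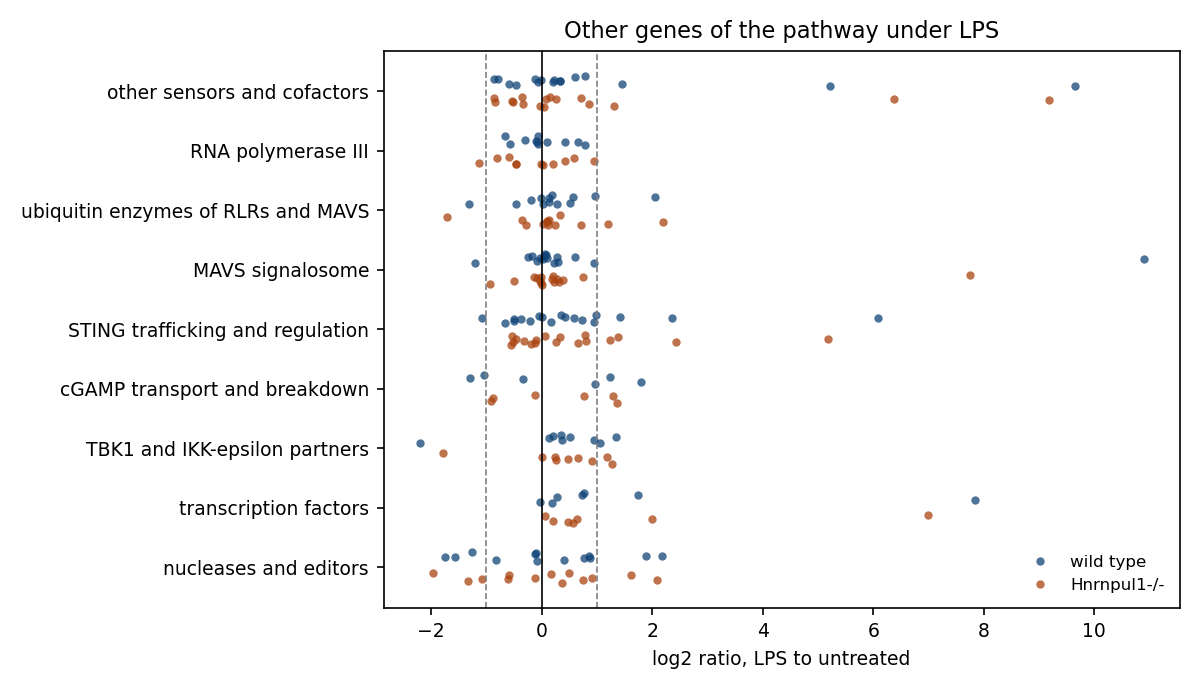
Log2 ratio of LPS to untreated for the 109 measured genes of the wider pathway, 1 point per gene and genotype, grouped by role; blue is wild type, red Hnrnpul1-/-, and dashed lines mark 2-fold. Most points lie inside the lines, and single genes (Zbp1, Ddx60, Ifit3, Usp18, Irf7) lie far to the right in their groups.

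Among 16 other sensors and cofactors, 3 were called higher in each genotype. Zbp1, a sensor of left-handed nucleic acid, had 8 reads in wild type at rest, 11 in knockout at rest, 5211 in wild type with LPS and 5290 in knockout with LPS. The helicase gene Ddx60 had 0, 1, 90 and 69 reads in that order, and Zc3hav1, the zinc finger antiviral protein, had log2 ratios of 1.46 and 1.31. The DNA sensor that feeds STING moved less: Mb21d1, which encodes cGAS, had log2 ratios of 0.33 (interval 0.23 to 0.44) in wild type and 0.16 (interval 0.05 to 0.26) in knockout. Aim2, the DNA sensor of an inflammasome, stood at 0.60 and 0.70. Of the 11 RNA polymerase III genes, whose product turns DNA into a RIG-I ligand, 1 was called, Polr3gl in knockout at -1.12, with -0.67 in wild type.

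Of 13 measured ubiquitin enzymes of RIG-I, MDA5 and MAVS, Trim25, a ligase known for RIG-I, was higher in both genotypes at 2.06 and 2.19, and Rnf135 (Riplet) was called in knockout at 1.20, with 0.96 in wild type. Trim65, a ligase of MDA5, was lower in both at -1.32 and -1.71. Among 16 genes of the MAVS signalosome, Ifit3 had the largest log2 ratio, 10.89 in wild type and 7.75 in knockout, from 2 and 16 reads at rest to 3071 and 2857 with LPS. Fadd, a death-domain adaptor, was called lower in wild type, at -1.20, with -0.94 in knockout. The adaptor genes Traf3 (-0.24 and -0.50) and Traf6 (0.27 and 0.23) were not called.

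On the STING side, 3 of 18 regulators were called higher in wild type and 4 in knockout. Usp18, which strips ISG15 and binds the interferon receptor, was at 6.08 and 5.19, the iRhom2 gene Rhbdf2 at 2.35 and 2.44, and Trim56 at 1.42 and 1.37. Atg9a, at 0.98 and 1.25, was called in knockout, and the autophagy kinase gene Ulk1, at -1.08 and -0.54, was called lower in wild type. Of 6 measured genes for cGAMP transport, Abcc1 (1.8 and 1.37) and Lrrc8d (1.24 and 1.30) were higher in both genotypes. Lrrc8c, another subunit of the same volume-regulated channels as Lrrc8d, was called lower in wild type at -1.29, with -0.87 in knockout. Slc46a3 was also called lower in wild type, at -1.04, on 33 and 13 reads.

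Among 9 measured partners of TBK1 and IKK-epsilon, the scaffold gene Tank was higher at 1.35 and 1.28, and Traip was lower at -2.20 and -1.78. The scaffold genes Azi2 (1.06 and 0.92) and Tbkbp1 (0.95 and 1.19) lay around the 2-fold line and were each called in 1 genotype. Of 7 transcription factors, Irf7 and Nfkb1 were called in both genotypes. Irf7 had 80 reads in wild type at rest, 138 in knockout at rest, 14785 in wild type with LPS and 14541 in knockout with LPS. Irf3, the other substrate of these kinases, was at 0.19 and 0.05. The nucleases and editors were divided: Samhd1 (2.17 and 2.09) and the RNA editor gene Adar (1.89 and 1.62) were higher, while the lysosomal nuclease gene Dnase2a (-1.75 and -1.96) and the RNase H2 subunit gene Rnaseh2c (-1.57 and -1.34) were lower in both genotypes. The other RNase H2 subunits were called lower in 1 genotype each, Rnaseh2b in wild type (-1.25, with -0.59 in knockout) and Rnaseh2a in knockout (-1.08, with -0.82 in wild type).

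By genotype, 2 of the 109 were called untreated, Ifit3 at 2.97 on 2 and 16 reads and Xrcc5, a subunit of the Ku DNA end-binding complex, at 1.19 on 77 and 179 reads, a count near the background of 2.01%. None was called under LPS, where 3.49% of all genes were. In the additive edgeR model, which averages over the treatments, 0 of 109 passed for genotype, against 1.92% of all genes. The LPS ratio was smaller in knockout by the 2-fold rule for 2 of the 109, where 3.02% of all genes were called in either direction. These were Ifit3, at -3.14, and 1 gene of the nucleases and editors that is not named here.

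At the end of the pathway, interferon transcripts were near the detection limit. Of 20 interferon genes, 18 had 0 reads in all 4 libraries. Ifnb1 had 0 reads in both untreated libraries, 12 in wild type with LPS and 9 in knockout with LPS, and Ifnk had 2 reads in untreated wild type and 0 elsewhere. Genes of the response to interferon were measurable. Among the receptor and ISGF3 genes, Stat2 (4.03 and 3.62) and Irf9 (2.27 and 1.75) were called higher in wild type and in knockout. The receptor genes Ifnar1 (0.26 and 0.29) and Ifnar2 (-0.37 and -0.39) were not called. In the untreated knockout against untreated wild type, Irf9 was at 0.56 (interval 0.40 to 0.73), Irf7 at 0.76 (interval 0.35 to 1.17) and Usp18 at 0.84 (interval 0.56 to 1.12), beside 0.72 for Ddx58. None of these reached 2-fold. Irf9, Irf7 and Usp18 were picked after their values were seen, and their part in the Ddx58 and Dhx58 values was not tested. In the same comparison the 7 receptor and ISGF3 genes had a median log2 ratio of 0.04, with 5 above 0 and 0 called. The 109 measured genes of the wider pathway had a median of 0.02, and Ifih1 went the other way at -0.49.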

How the data were processed

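Polyadenylated RNA from 4 libraries, 1 per group, was sequenced. Per the submitters' processing notes, CASAVA 1.8, HISAT2 2.0.5 and featureCounts 1.5.0-p3 were used with the builds GRCm38 and mm10; strand and multi-overlap settings are not given there. The authors deposited whole-number read counts per gene, not normalized. The FPKM deposited by the authors are counts over gene length and over a library constant, which was 1.15 and 1.16 times the total count in untreated wild type and knockout and 0.932 and 0.927 times with LPS.

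Counts were scaled by TMM factors (edgeR 4.0.16, R 4.3.3) over genes whose mean CPM was 1 or more; the factors were 1.11, 1.12, 0.901 and 0.899. Ratios of 2 libraries carry exact conditional (Clopper-Pearson) 95% intervals, which take each read as an independent draw and cover counting error only. PCR reads without molecular identifiers cannot be taken as independent molecules, so these intervals may be too narrow. A gene was called at 2-fold or more with an interval excluding no change. A count of 0 entered as 3 counts, so a ratio from 0 reads depends on this floor. The interaction has a delta-method interval. Adjusted p-values come from edgeR's quasi-likelihood test of an additive model over all 4 libraries with Benjamini-Hochberg adjustment over all measured genes at 0.05; it treats the genotypes, or the treatments, as 2 libraries a side. DESeq2 1.42.0 and limma 3.58.1, on log2(FPKM + 1), were alternatives, as were other scalings, filters and size rules.

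Gene IDs matched GENCODE M21 for 54495 of 54532 genes, of which 98.01% had the same exonic length; Tmem173 had 2302 exonic bases in the files and 2741 in the annotation. Protein lengths are of its principal isoforms. The members and lists were chosen with earlier results of these data known. Named were all members, Hnrnpul1, pathway and interferon genes called in some comparison, with up to 3 per role preferred, interferon genes with any read, and the 2 nearest patterns per responsive member. Mb21d1, Aim2, Irf3, Traf3, Traf6, Ifnar1, Ifnar2, Atrip, Mrc1 and Mertk, and Irf9, Usp18 and Irf7 at rest, were added after their values were seen. Some genes of the lists are not reported here.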

Additional observations from a re-analysis of the deposited data

Results flagged for a closer look

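For 3 members the untreated libraries and the LPS libraries put the genotypes in opposite order. Ddx58 was higher in knockout when untreated, at a log2 ratio of 0.72, and lower with LPS, at -0.22. Ifih1 went from -0.49 untreated to 0.15 with LPS. Mavs went from 0.13 untreated, where its counting interval included no change, to -0.31 with LPS. With 1 library a group, these differences between treatments were not tested; the intervals given for the interaction cover counting error only.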

How the results depend on the processing

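No paired analysis was possible because each group holds 1 library and the labels give no replicate numbers; for the same reason no replicate could be left out. No result reversed its call. Of 140 member ratios under an alternative, 120 moved by less than their counting interval. The 20 that moved further were all LPS ratios, under total counts or log2(FPKM + 1). Under total counts the LPS ratios of every measured member except Ifih1 moved further, in both genotypes. The Tmem173 interaction alone changed sign, between -0.0003 and 0.03. Under a 1.5-fold size rule, 1 member differed by genotype untreated (Ddx58), and 2 had a genotype by LPS difference (Ddx58 and Ifih1). By the same rule 1 was lower with LPS in knockout (Mavs). Each of these counts was 0 at 2-fold. Of the 11640 measured genes, the 1.5-fold rule called 316 higher and 253 lower by genotype untreated. It called 307 higher and 449 lower for the interaction, and 2448 lower with LPS in knockout. Mavs also passed under total counts, which made the count of members lower in knockout 1. The counts of members lower with LPS were added after seeing the data. Among the 109 measured genes of the wider pathway, the 1.5-fold rule gave, for LPS, 33 higher and 15 lower calls in wild type and 32 and 14 in knockout. By genotype it gave 4 untreated and 2 with LPS. Over all 11640 measured genes the LPS calls were 2202 higher and 2230 lower in wild type and 2247 and 2448 in knockout. By genotype with LPS they were 463 higher and 524 lower. Requiring the whole interval beyond 2-fold left 4 of the pathway lower in wild type and 0 by genotype untreated, and log2(FPKM + 1) gave 3 and 0. Over all 11640 measured genes the whole-interval rule left 728 lower in wild type, and 28 higher and 20 lower by genotype untreated. A mean CPM of at least 10 left 1 by genotype untreated. Total counts gave 12 lower in knockout, where 2156 of the 11640 measured genes were lower. Depth limits genes with few reads: the untreated sensors had 64 to 504 each, resting Zbp1 8 and 11, and interferon genes at most 12. Differences between cultures of the same group were not measured.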
